A study of Mus musculus with 2 samples.

Results

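Mir122, Mir216a, Mir216b and Mir217 are the 4 microRNA (miRNA) genes described here, out of 1973 genes in the count tables. They were chosen by name as marker genes of organs that lie beside the stomach, Mir122 for the hepatocytes of the liver and the other 3 for the acinar cells of the pancreas. The libraries came from stomachs of healthy B6NCrl mouse embryos at 16.5 days, male and female together. All belong to 1 group with 2 biological replicates, and each replicate pools several embryos, with 41 embryos in replicate 2 and a number not given in the labels for replicate 1. The labels number them as biological replicates from separate samples but give both the same donor entry. An SD here therefore measures the spread between these 2 libraries, which may be technical in part. The p-values of the exact binomial and Fisher tests weigh counting error alone and do not measure that spread. Only edgeR's exact test takes in a spread between libraries, estimated from these 2. No treatment, second genotype, second age, liver or pancreas is among the samples analysed here, so the comparisons are between genes within the stomach and between the libraries.

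A miRNA gene is transcribed into a hairpin, and nuclear and cytoplasmic enzymes cut the hairpin down to short mature strands from its 5′ arm (5p) and 3′ arm (3p). A mature strand guides a silencing complex to messenger RNAs that pair with its seed, the bases near its 5′ end. Liver, pancreas and stomach arise from adjoining stretches of the embryonic gut tube. In adult mammals miR-122 is the dominant miRNA of hepatocytes, where it acts on lipid metabolism, and miR-216a, miR-216b and miR-217 are known as miRNAs of the exocrine pancreas, where acinar cells make digestive enzymes.

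The pancreatic genes form a cluster on the plus strand of chromosome 11. Their hairpins, from RefSeq on GRCm38.p6, show what the counts refer to, since each deposited count covers a whole hairpin and does not separate its arms. By symbol, 3 of the 4 members matched the RefSeq table, and Mir122 is named only. Capitals mark the annotated mature strands.
Mir216b hairpin: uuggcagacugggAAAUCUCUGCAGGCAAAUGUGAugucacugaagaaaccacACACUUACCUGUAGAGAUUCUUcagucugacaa
Mir216a hairpin: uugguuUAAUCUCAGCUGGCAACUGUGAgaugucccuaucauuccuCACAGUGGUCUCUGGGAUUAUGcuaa
Mir217 hairpin: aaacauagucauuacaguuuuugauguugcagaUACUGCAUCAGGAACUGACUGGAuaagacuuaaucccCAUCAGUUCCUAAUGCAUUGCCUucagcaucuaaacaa

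The 5p and 3p strands are shown next to compare the members' seeds, with the seed (bases 2 to 8) in capitals.
miR-216a-5p: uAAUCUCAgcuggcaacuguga
miR-216b-5p: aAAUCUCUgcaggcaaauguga
miR-217-5p: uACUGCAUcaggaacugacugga
miR-216a-3p: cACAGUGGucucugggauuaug
miR-216b-3p: aCACUUACcuguagagauucuu
miR-217-3p: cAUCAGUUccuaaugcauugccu

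No seed was shared among these 6 strands, nor with any other of the 1679 named mature miRNAs in the RefSeq table. The 5p strands of miR-216a and miR-216b were the closest, with 18 of 22 bases identical, or 81.8%. Counted from 1 at the 5′ end, with the base of miR-216a first, they differed by U1A, A8U, U11A and C17A, so that a single one of the 7 seed bases differed. Their 3p strands had 7 of 22 bases in common, and miR-217-5p had 6 of 22 in common with either miR-216 5p strand. None of the 4 hairpins shared a stretch of 20 bases on the same strand with any of the 2201 other miRNA genes in GENCODE M21. Mir216b shared such a stretch in reverse complement with Mir216c, which is annotated on the opposite strand of the same locus and is not counted separately in the tables. Reads on the opposite strand numbered 0 in both libraries at each of the 4 genes, and a count of 0 allows, for reads placed in 1 position, a level of up to 0.388 CPM in replicate 1 and up to 0.376 in replicate 2.

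Mir216b lies at chr11:28746191-28746276, Mir216a at chr11:28757012-28757083 and Mir217 at chr11:28763728-28763835 (mm10, the same assembly as GRCm38). The gap between Mir216b and Mir216a is 10735 bases and that between Mir216a and Mir217 is 6644 bases, in a cluster that spans 17645 bases. Mir216a and Mir217 lie in introns of the long noncoding RNA gene Gm12082, and Mir216b lies 5357 bases upstream of that gene. Mir122 stands alone at chr18:65248861-65248926 on the plus strand, in an exon of the long noncoding RNA gene AC157910.3. The nearest protein-coding genes are Alpk2, 16603 bases away on the other strand, and Nedd4l, 31033 bases away on the same strand.

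The libraries held 7734578 and 7983714 sense-assigned reads in replicates 1 and 2, and levels are given as counts-per-million of these reads (CPM). The markers fixed for stomach smooth muscle, epithelium and forestomach all had reads, and Mir143 of smooth muscle was the most abundant gene of the profile. Intervals are exact Clopper-Pearson 95% intervals of the counting error alone, because no molecular identifiers are described for these reads. The floor of 3 reads is 0.388 CPM for replicate 1 and 0.376 CPM for replicate 2.

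The first question was how much RNA of the liver and pancreas markers the stomach pools held. Mir122 was counted with 14085 reads in replicate 1, against 9661 in replicate 2. These counts correspond to 1821 CPM (1791 to 1851) in replicate 1 and 1210 CPM (1186 to 1234) in replicate 2, with a mean of 1516 ± 432 CPM (SD, n = 2). Replicate 1 was the higher library for this gene, and the counting intervals did not overlap.

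Mir122 ranked 83 among the 751 genes with a sense read, 75 in replicate 1 and 86 in replicate 2, and 88.9% of those genes lay below it. The median mean level was 1.91 CPM over all genes with a read and 309 CPM over the 289 genes whose mean reached 10 CPM. The SD of Mir122 was wide relative to the steps between neighbours in rank, and 28 other genes lay within 1 SD of its mean. Mir140, Mir467d, Mir425 and Mir192, the neighbours in rank on either side, had means from 1479 to 1590 CPM, and their order against Mir122 is not settled. In a bulk tissue, a low number of cells of a type and a low amount of RNA per cell cannot be told apart, and this holds for each level given here.

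The pancreatic genes were detected at far lower levels. Mir217 had 35 reads in replicate 1 and 15 reads in replicate 2, which correspond to 4.53 CPM (3.15 to 6.29) and 1.88 CPM (1.05 to 3.10). Mir216b had 10 and 4 reads in the same order of libraries, or 1.29 CPM (0.620 to 2.38) and 0.501 CPM (0.137 to 1.28). Mir216a had 2 and 4 reads, or 0.259 CPM (0.0313 to 0.934) and 0.501 CPM (0.137 to 1.28), so that its count in replicate 1 lay under the floor of 3 reads. The counting intervals of the libraries overlapped for Mir216b and Mir216a, and for Mir217 the interval of replicate 1 began just above the upper end of that of replicate 2.

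The means were 3.20 ± 1.87 CPM for Mir217, 0.897 ± 0.560 CPM for Mir216b and 0.380 ± 0.171 CPM for Mir216a (SD, n = 2), and the mean of each of the 3 genes stayed below 10 CPM. Mir217 ranked 338, Mir216b 442 and Mir216a 560 among the 751 genes with a read. Counts this low were common in the profile. In replicate 1, 42 other genes had the same 2 reads as Mir216a, and in replicate 2, 27 other genes had the same 4 reads as Mir216a, Mir216b being one of them. The acinar genes together came to 47 reads in replicate 1 and 23 reads in replicate 2, or 6.08 CPM (4.46 to 8.08) and 2.88 CPM (1.83 to 4.32). Mir217 supplied 74.5% of these reads in replicate 1 and 65.2% in replicate 2.

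**Figure D1:**
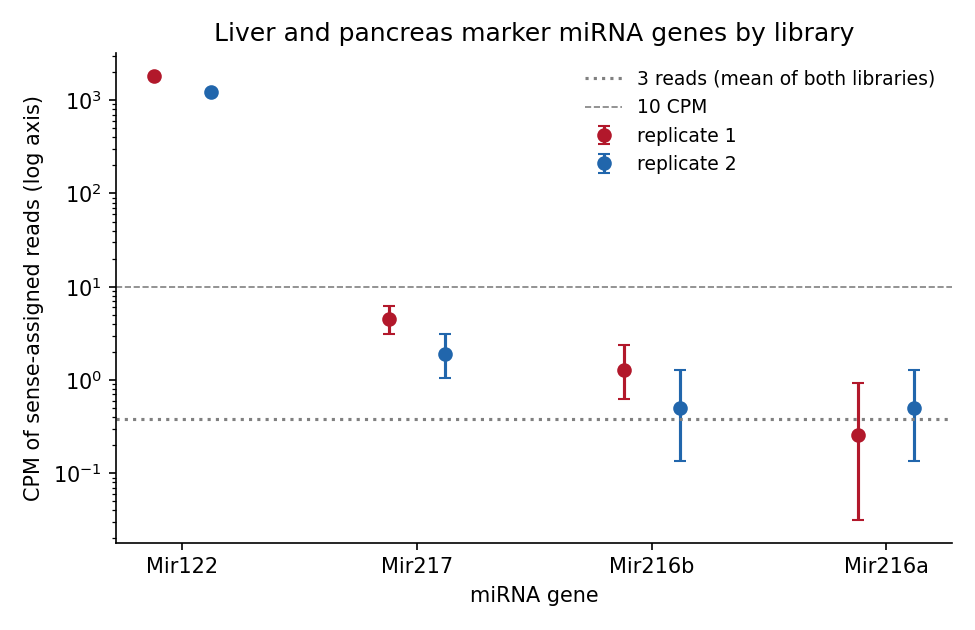
CPM of sense-assigned reads (log axis) of the 4 genes, with replicate 1 in red and replicate 2 in blue. Points are single libraries and bars are exact 95% counting intervals. The dashed line marks 10 CPM and the dotted line the level of 3 reads. Mir122 stands at 1821 CPM in replicate 1 and 1210 CPM in replicate 2, and Mir217, Mir216b and Mir216a stand below 10 CPM in both, with 2 reads of Mir216a in replicate 1 under the dotted line.

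**Figure D2:**
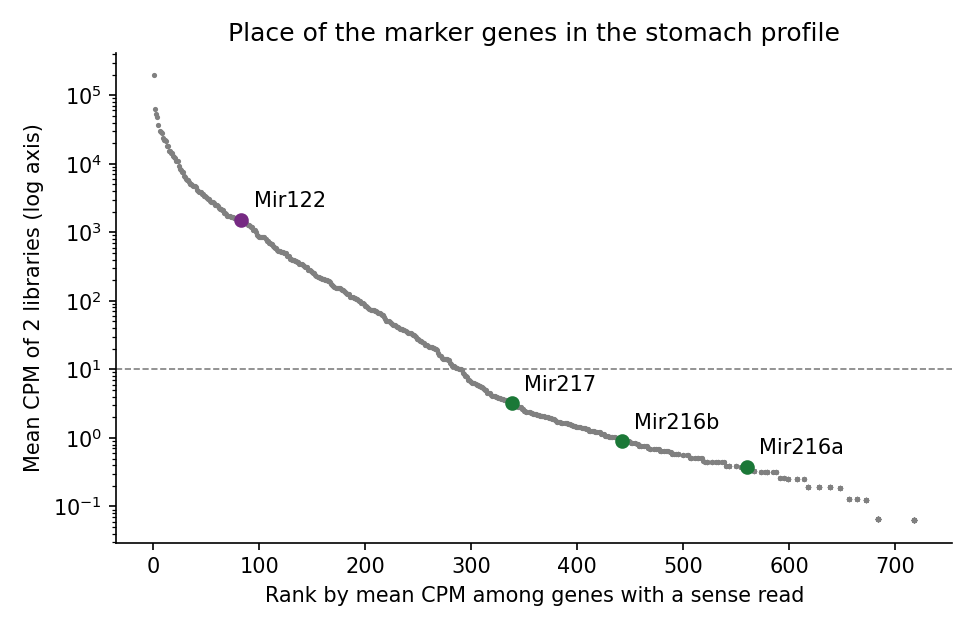
Mean CPM over both libraries (log axis) of the 751 genes with a sense read against their rank, with Mir122 in purple and the 3 pancreatic genes in green. The dashed line marks 10 CPM. Mir122 lies on the upper slope at rank 83, and Mir217, Mir216b and Mir216a lie on the flat lower tail at ranks 338, 442 and 560.

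The order of the members was then compared within each library. For every read of the 3 acinar genes together there were 299.7 reads of Mir122 in replicate 1 and 420.0 in replicate 2. Mir122 exceeded each pancreatic gene in both libraries, with two-sided exact binomial p-values too small for the software to hold. Mir217 exceeded Mir216b in both libraries, with an adjusted p of 0.000371 in replicate 1 and 0.0231 in replicate 2 in the same exact test, adjusted over 6 pairs and 2 libraries. Mir217 also exceeded Mir216a, with adjusted p-values of 1.76e-08 and 0.0231 in exact tests. Mir216b and Mir216a were not ordered by these data. Their reads were 10 and 2 in replicate 1 (exact adjusted p 0.0421), and 4 and 4 in replicate 2.

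Those tests take each read as one mature strand and apply no length scaling. Per kilobase of annotated hairpin, the mean levels were 22963 CPM for Mir122, which has a hairpin of 66 bases, and 29.6 CPM for Mir217, which has one of 108 bases. They were 10.4 CPM for Mir216b and 5.27 CPM for Mir216a, with hairpins of 86 and 72 bases. On this scale the lead of Mir217 no longer passed in replicate 2, with an exact adjusted p of 0.0825 against Mir216b and 0.114 against Mir216a, while the order of the means stayed the same. The lead of Mir122 over each of the 3 genes passed on both scales.

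The second question was whether the marker genes differed between the pools. Of the 289 genes whose mean reached 10 CPM, 23 passed a threshold of 2-fold and an adjusted p of 0.05 between the libraries, or 7.96%, in a two-sided exact binomial test with Benjamini-Hochberg adjustment. Mir122 was the only member that reached the level for testing. It was 1.36-fold higher in replicate 1 (95% counting interval 1.33 to 1.40), a log2 ratio of 0.45. It passed the adjusted exact test at 1.12e-122 and did not reach 2-fold. Without a minimum fold 228 of the 289 genes passed, or 78.9%, so passing on that rule is the common case among genes of this depth.

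The ratio of Mir122 was set beside those of all tested genes. Of the 289 tested genes, 81 lay at least as far from a log2 ratio of 0, or 28.0%. The log2 ratio was 0.40 with DESeq2 size factors and 0.59 with scaling by total sense-assigned reads, and the median of all tested genes was 0.01 with the first scaling and 0.21 with the second. Mir122 stood 0.38 above that median, a distance that scaling cannot change. Against the spread estimated from both libraries, with a biological coefficient of variation of 0.298, edgeR's exact test gave Mir122 an adjusted p of 0.994. That spread comes from the same difference between 2 libraries that the test is about, so this value decides nothing about Mir122.

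Blood cell genes, which a fetal liver is also rich in, were set beside Mir122. Of the 4 genes in the erythroid list 2 were matched by symbol, both with reads. Their summed level was 1224 CPM in replicate 1 and 577 CPM in replicate 2. Mir486a and Mir486b were not matched, but a gene annotated as Mir486 had 122 reads in replicate 1 and 106 in replicate 2. That gene did not pass the 2-fold test and is not in the sum. Mir451a, a miRNA of red cell maturation, had 8396 reads in replicate 1, against 3336 in replicate 2, was 2.35-fold higher in replicate 1 and passed the 2-fold test. Mir144, its cluster partner, had 1073 and 1273 reads, a ratio of 0.788 that did not reach 2-fold. The part of erythroid RNA in the difference of Mir122 was not tested.

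For the pancreatic genes the ratio of the libraries was poorly determined. Mir217 had a ratio of replicate 1 over replicate 2 of 2.18, with a 95% counting interval from 1.16 to 4.30. Mir216b had a ratio of 2.34 (0.674 to 10.2) and Mir216a a ratio of 0.468 (0.0423 to 3.26), and both intervals include a ratio of 1. When every gene with a read was tested, Mir217 passed the same exact binomial rule at an adjusted p of 0.0328, where 54 of 751 genes passed, or 7.19%. Over the 437 genes with a mean of at least 1 CPM it passed at 0.0196 in the exact test, where 48 genes passed, or 11%. With the estimated spread in place of counting error alone, edgeR's exact test over those 751 genes gave Mir217 an adjusted p of 1 and an unadjusted p of 0.198. That spread was itself estimated from these 2 libraries, so neither test settles whether Mir217 differs beyond the spread among pools.

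Whether the members moved together was examined by Fisher's exact test on the counts of each of 6 pairs, which needs no scaling of the libraries. No pair passed, with two-sided adjusted p-values from 0.330 to 1 in the exact tests. The odds of a read falling in replicate 1 were 0.625 times as high for Mir122 as for Mir217 (95% interval 0.317 to 1.17), and 0.934 times as high for Mir217 as for Mir216b (0.184 to 3.93). For Mir122 against Mir216a the odds ratio was 2.92, with an interval from 0.418 to 32.2. Where Mir216a or Mir216b was in the pair, differences of several fold between members were not detectable at this depth.

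**Figure D3:**
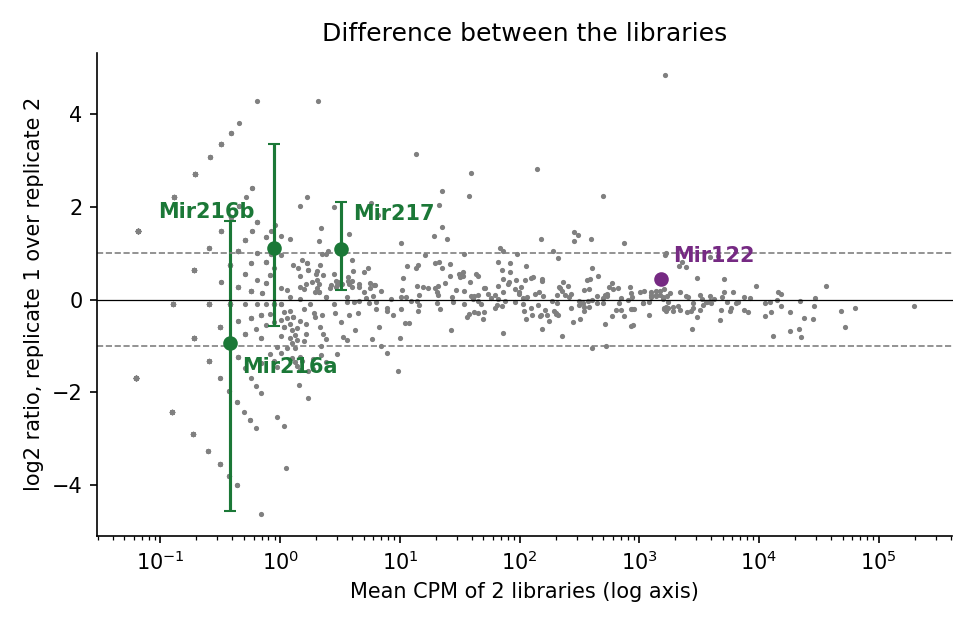
Log2 ratio of replicate 1 over replicate 2 against mean CPM (log axis) for all 751 genes with a sense read, in grey, with Mir122 in purple and the pancreatic genes in green. Bars on the members are 95% counting intervals and dashed lines mark 2-fold. Mir122 sits at 0.45 inside the 2-fold lines. Mir217 and Mir216b sit near 1.1 and Mir216a near -0.94, with intervals that widen as the counts fall.

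Genes with the most similar levels in both libraries were found by the distance between log2(CPM + 1) values over the 2 libraries. For Mir122 they were Mir192, a miRNA of liver and intestinal epithelium, at a distance of 0.18, Mir467e at 0.23 and Mir532 at 0.24. Mir192 had 1651 CPM in replicate 1 and 1306 CPM in replicate 2. For Mir217 the nearest were Mir3572, Mir7658 and Mir7069, with 27 to 44 reads in replicate 1 and 15 to 17 in replicate 2. For Mir216b, Mir196a-1 and Mir6985 had exactly its 10 and 4 reads, and Mir135a-2 had 9 and 4. With a pair of libraries this measures a shared level and ratio only.

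The last question was how the members compared with other miRNAs of the same organs. All 8 measured genes of the liver list were at 10 CPM or more in both libraries, with a median of 1370 CPM. Of all 751 genes with a read, 277 were at 10 CPM or more in both libraries. None of the 8 passed the 2-fold test between the libraries, which at 7.96% of all tested genes says nothing particular about the list. Beside Mir122 the list holds Mir802, a miRNA of liver metabolism, at 593 ± 148 CPM, and Mir148a at 1262 ± 129 CPM (SD, n = 2). Mir192, Mir194-1 and Mir194-2 are in the intestinal list too, which had a median of 990 CPM, so the liver list is not particular to the liver. Mir802 and both Mir194 genes lay below Mir122 by more than its SD, while Mir148a, Mir192, Mir455 and Mir101b lay within 1 SD of it. Mir101b and both Mir194 genes share 20 bases with another hairpin, and their counts may lack reads placed in several positions.

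Of the 4 measured genes of the acinar list, only Mir148a reached 10 CPM in both libraries. Mir148a, which is abundant in the pancreas but also in other digestive organs, had 10468 reads in replicate 1, against 9349 in replicate 2, and the 3 genes of the chromosome 11 cluster had the counts given above. The median of the acinar list was 2.05 CPM, near the 1.91 CPM of all genes with a read. The pancreatic endocrine list had a median of 291 CPM, with 5 of its 6 genes at 10 CPM in both libraries, beside 277 of all 751 genes with a read. Its best known member, Mir375 of endocrine cells, which the stomach also has, stood at 11125 ± 1179 CPM. Mir335 was the highest gene of the list, at 36512 ± 7721 CPM (SD, n = 2). It made up 41972 of the list's summed 53017 CPM in replicate 1, and 31052 of 43486 CPM in replicate 2. The remaining gene, Mir184, had 54 reads in replicate 1, against 31 in replicate 2. Mir7-1 and Mir7-2 in that list each share 20 bases with another hairpin, so their levels are uncertain.

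**Figure D4:**
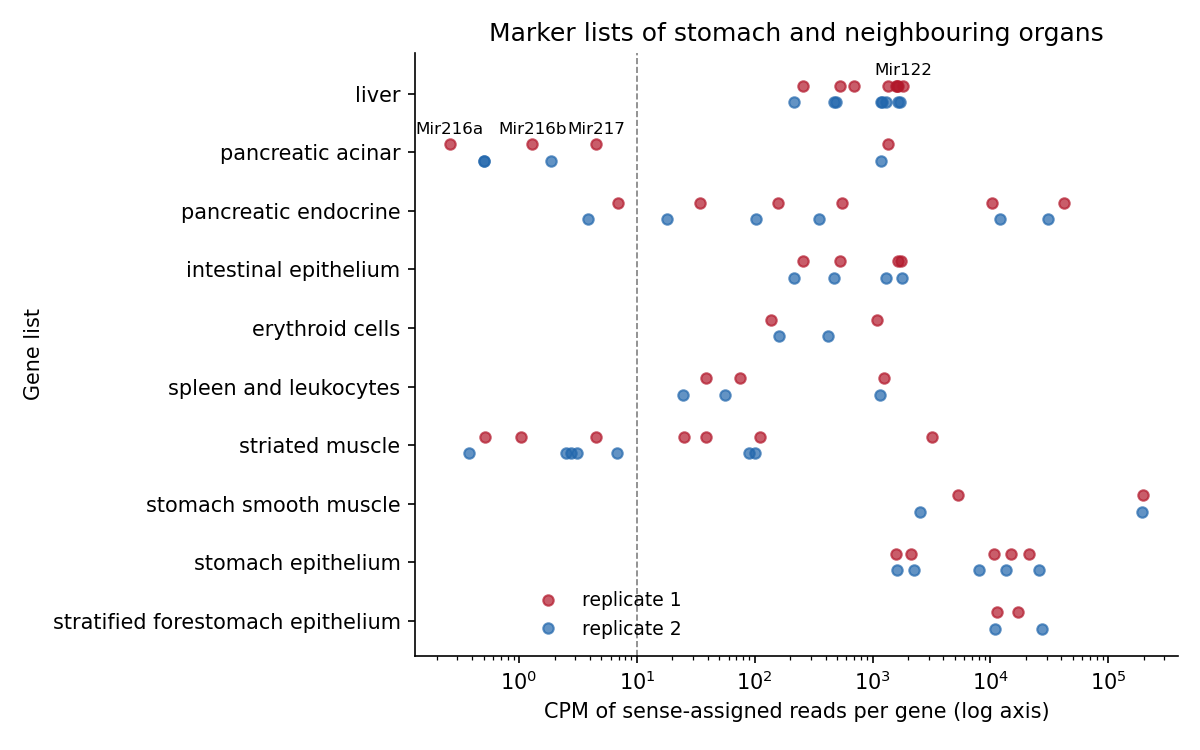
CPM per gene (log axis) for lists of stomach and neighbouring-organ miRNA genes, each point a gene in 1 library, with replicate 1 in red above replicate 2 in blue. Genes without a read are not drawn and the dashed line marks 10 CPM. Mir122 is the highest gene of the liver list in replicate 1 and the fourth in replicate 2, and Mir216a, Mir216b and Mir217 are the 3 genes of the acinar list left of the line.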

How the data were processed

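Small RNA was sequenced from 2 pools of stomach. The authors deposited, per library, raw read counts for each of 1973 genes without regard to strand and on either strand. The build is mm10 and the counted annotation GENCODE M4, per the file headers. The aligner and counter were not given in the sources used here. The strand with the larger total was taken as sense. Rows that name no gene were left out of library sizes; multiply placed reads were 25.1% of reads in replicate 1 and 25.2% in replicate 2, unmapped reads 21.3% and 20.3%, reads outside genes 2.81% and 3.11%, with 0 ambiguous reads. Multiply placed reads form a total of their own, so gene counts probably lack them.

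Symbols and coordinates came from GENCODE M21 (GRCm38), which matched 1894 of the identifiers. Ratios used TMM scaling (trimmed mean of M values) from edgeR 4.0.16 (R 4.3.3), with 0.5 added to counts. Intervals of ratios are exact conditional intervals of the counts without the added 0.5. Tests between libraries are two-sided exact binomial tests with Benjamini-Hochberg adjustment at 0.05 and 2-fold over genes at a mean of 10 CPM. They compare 2 libraries, not conditions. DESeq2 1.42.0 gave alternative size factors. Python 3.11.15, scipy 1.17.1 and matplotlib 3.10.9 were used. Tested on simulated counts for 289 genes, the binomial test called 100% of 150 genes simulated with a 3-fold change. It called 0% of 50 simulated at 1.5-fold, a change below its threshold, and 0% of the 89 left without a change. The simulated counts carried counting error only.

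Members, gene lists and tests were chosen with earlier results of these data known. Genes named are the members, those next to each in rank, the 3 most alike in both libraries (not for Mir216a, with under 10 reads), list members and genes within 50 kb. Alternatives covered scaling, strand, filters, hairpin length, added spread and leaving out a library; edgeR's test over every gene with a read was added after the data were seen.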

Additional observations from a re-analysis of the deposited data

How the results depend on the processing

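With all reads of the library as the denominator, Mir122 stood at 749.9 CPM and Mir216a at 0.189 CPM. Per kilobase of hairpin, the log2 lead of Mir217 was 1.51 over Mir216b and 2.49 over Mir216a, short of the threshold in replicate 2, where reads were fewest. With 1 library left, the log2 lead of Mir216b over Mir216a was 0 without replicate 1 and 2.32 without replicate 2, and only the second passed. The level of Mir122 ranged from 1210 to 1821 CPM as each library was left out, and that of Mir217 from 1.88 to 4.53 CPM. Without a minimum fold the log2 ratio of Mir122, 0.45, passed the test. With a mean of 1 CPM or no filter on low counts, that of Mir217, 1.10, passed. The number of genes that differed was 23, and 48 with a mean of 1 CPM, 54 with no filter, 228 with no minimum fold, 7 with edgeR's exact test and its estimated spread, and 5 with that test over every gene with a read. Unadjusted p-values under 0.05 numbered 17 and 27 in those edgeR tests. Leaving out hairpins that share 20 bases put the liver list at 0.646% of reads, against 0.886% with them. No result reversed. No paired analysis was possible because the series holds a single group. For Mir216a and Mir216b, depth limits every comparison.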

Other observations

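Of the lists for cells outside the digestive organs, the one for spleen and leukocytes had no gene past the 2-fold test between the libraries, out of 3 tested. Beside 7.96% of all tested genes that passed, this says nothing particular about the list. Mir223 of myeloid cells stood at 1203 ± 52.3 CPM (SD, n = 2), Mir155 had 585 reads in replicate 1, against 448 in replicate 2, and Mir150 of lymphocytes had 300 and 198. Mir142b, the other gene of the list with a row, had 0 sense reads, but 12186 reads lay on its opposite strand in replicate 1 and 8444 in replicate 2, so the 0 does not show absence at this locus. Counting both strands put the list at 0.254% of reads, against 0.130% on the sense strand.

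In the striated muscle list, 3 of 4 tested genes, Mir206, Mir133b and Mir499, passed the 2-fold test as higher in replicate 1. Of all tested genes, 7.96% passed in either direction. Mir208b, the remaining tested gene, stayed under 2-fold at a ratio of replicate 1 over replicate 2 of 1.12 (851 reads against 712). Mir1b, too low for testing, went the other way, with a log2 ratio of -1.50 (8 reads against 22). The list's summed level was 3363 CPM in replicate 1 and 205 CPM in replicate 2, of which Mir206 alone made up 3184 and 99.8 CPM. Mir133a-1 and Mir133a-2 had 0 reads and share 20 bases with another hairpin. Mir133b and Mir1a-1 share such a stretch too, and their counts may lack reads placed in several positions. Mir208a of that list stood at 35 and 25 reads, close in count to the 35 and 15 reads of Mir217.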
